A study of Mus musculus with 8 samples.

Results

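Neurotrophic factors are secreted proteins that keep neurons alive and shape their processes and synapses. Brain-derived neurotrophic factor (BDNF) and neurotrophin-3 act through the receptor tyrosine kinases TrkB and TrkC, which Ntrk2 and Ntrk3 encode, and Ntrk2 also gives a truncated receptor that is abundant in astrocytes. Glial cell line-derived neurotrophic factor (GDNF), known for its trophic action on midbrain dopamine neurons, binds the membrane-anchored co-receptor GFRα1 (Gfra1) and signals through the kinase Ret, while GFRα2 (Gfra2) is the preferred co-receptor of neurturin. Midkine (Mdk) and pleiotrophin (Ptn) are a pair of related heparin-binding growth factors.

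The genes described here are these 10 ligands and receptors: Bdnf, Gdnf, Ntf3, Mdk and Ptn among the ligands, and Ntrk2, Ntrk3, Gfra1, Gfra2 and Ret among the receptors. A probe set stood for a gene where the platform annotation gave that symbol alone, and the brightest one would have been taken, but none of these genes had more than 1. By this rule 9 of the 10 genes had a probe set, all 9 passed the filter on dim probe sets, and Ntf3, the gene of neurotrophin-3, was not analysed here. Over the whole array, 19938 genes had such probe sets, and 13524 of them passed the filter.

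Thalamic tissue of 8 male C57BL/6 mice, 6 weeks old at the start, was profiled on Affymetrix whole-transcript arrays, 1 array per mouse and 2 mice per group. All mice were injected intraperitoneally each day for 4 weeks, with a volume of 100 µl. Acupoint mice received 20 mg/kg of MPTP, a toxin whose metabolite enters dopamine neurons and which serves to produce parkinsonism in animals. They were held by hand and needled on both sides at the acupuncture points GB34 and LR3, on the leg and foot, in 14 sessions 48 hr apart. Hip-needled mice, the non-acupoint group, received the same MPTP injections and the same needling at the hips. MPTP mice received the toxin and no needling, and control mice received saline and no needling. MPTP is thus shared by 3 of the 4 groups, so needling was not studied in mice without the toxin.

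Levels below are log2 values from robust multi-array averaging (RMA), and a difference is between group means on that scale. Array medians lay between 6.18 and 6.29. The arrays of MPTP mouse 1 and hip-needled mouse 1 stood apart. Over the tested probe sets their mutual r was 0.982, and r between them and the 6 remaining arrays ran from 0.905 to 0.936. Among those 6, r ran from 0.981 to 0.995. On 29.2% of probe sets both of these arrays lay below all 6 others, and on 28.3% above them. Differences are therefore given for all 8 arrays and, in most cases, for the 6 others as well. With 6 arrays the MPTP and hip-needled groups hold 1 mouse each, and their spread is taken from the control and acupoint pairs. Nothing in the labels says more of how the 2 mice of a group relate than their numbers, and the p-values measure only the spread between these mice. With 2 arrays in a group, that number sets the precision.

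**Figure D1:**
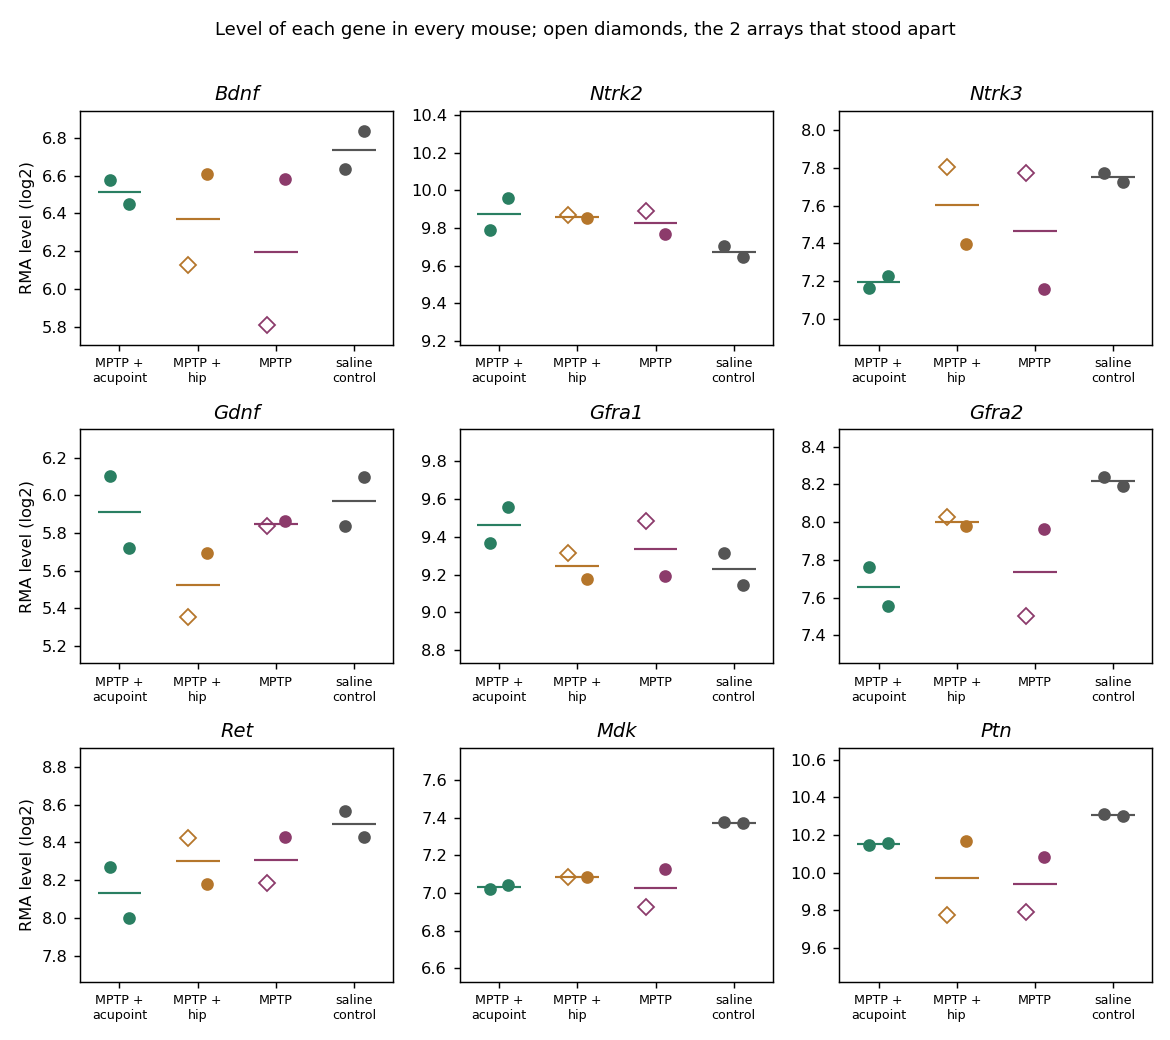
RMA level (log2) of each of the 9 measured genes in every mouse, with acupoint, hip-needled, MPTP and saline control mice from left to right in each panel. Filled circles are single mice, open diamonds are the 2 arrays that stood apart, lines are group means, and every panel spans the same number of log2 units; in Mdk and Ptn all 6 MPTP-injected mice lie below both controls.

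For 6 of the genes, Ntf3 included, RefSeq windows around the start site were at hand (GRCm38.p6, 250 bases before the start to 50 after), 14 windows in all. Bdnf, which has several alternative promoters, had 7 of them. Those below belong to the ligands Bdnf, Gdnf and Ptn and to Ntrk2. Bdnf and Ptn had the profiles most alike over the 8 arrays among all pairs of these genes, and Ntrk2 ran against them. In Bdnf and Gdnf, 1 window each is shown, the one with a match to the first of the motifs that follow. Capitals mark matches, on either strand, to the core of the cAMP response element (TGACG, or CGTCA on the other strand), to the GC box (GGGCGG or CCGCCC), to the TATA box (TATAAA) and to the E-box CACGTG.
Bdnf start 3, chr2:109692186-109692485, plus strand: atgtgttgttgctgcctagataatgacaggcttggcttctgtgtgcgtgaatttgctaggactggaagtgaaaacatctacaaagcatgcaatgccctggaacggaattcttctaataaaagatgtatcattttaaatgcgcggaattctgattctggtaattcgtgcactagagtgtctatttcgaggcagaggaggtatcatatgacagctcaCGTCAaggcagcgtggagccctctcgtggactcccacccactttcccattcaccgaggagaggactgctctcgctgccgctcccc
Gdnf start 1, chr15:7809798-7810097, plus strand: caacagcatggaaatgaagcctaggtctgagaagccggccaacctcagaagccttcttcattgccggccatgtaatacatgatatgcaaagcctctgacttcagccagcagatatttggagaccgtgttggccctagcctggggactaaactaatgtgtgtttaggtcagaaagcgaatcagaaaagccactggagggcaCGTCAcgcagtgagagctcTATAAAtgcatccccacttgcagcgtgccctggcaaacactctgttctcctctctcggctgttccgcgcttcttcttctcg
Ptn, chr6:36810130-36810429, minus strand: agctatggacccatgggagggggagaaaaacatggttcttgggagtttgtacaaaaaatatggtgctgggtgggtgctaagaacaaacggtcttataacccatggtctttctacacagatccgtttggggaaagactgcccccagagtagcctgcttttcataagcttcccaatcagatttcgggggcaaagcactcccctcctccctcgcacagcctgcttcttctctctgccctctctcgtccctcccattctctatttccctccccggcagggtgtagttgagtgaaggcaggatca
Ntrk2, chr13:58806319-58806618, plus strand: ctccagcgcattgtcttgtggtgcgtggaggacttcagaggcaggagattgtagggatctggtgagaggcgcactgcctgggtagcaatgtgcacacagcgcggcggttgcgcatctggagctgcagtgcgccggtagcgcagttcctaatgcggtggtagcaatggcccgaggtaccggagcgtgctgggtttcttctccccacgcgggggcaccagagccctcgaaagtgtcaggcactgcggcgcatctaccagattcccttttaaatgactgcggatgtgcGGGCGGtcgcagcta
The third Bdnf window holds a CGTCA at position -35 relative to the start, and the first Gdnf window holds one at position -50 and a TATAAA at position -31. No other of the 14 windows holds this core, so the windows shown are not typical in it. The Ntrk2 window holds 1 GC box, at position 35 past the start, and the Ptn window holds none of these motifs. The full element TGACGTCA was in none of the 14 windows and in 1.79% of all 32851 windows of the table, the core in 20.8%, the GC box in 35.7%, the TATA box in 13.6% and the E-box in 7.15%. These are letter matches and say nothing about binding in this tissue.

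The first question was what repeated MPTP did to these genes in the thalamus, and Mdk and Gfra2 had the smallest p of the 9 genes against controls. When the 3 injected groups were averaged, 7 of the 9 genes were lower than in controls and 2, Ntrk2 and Gfra1, were higher. The median log2 difference was -0.28 over the 9 genes and -0.01 over all tested probe sets, and with 6 arrays it was -0.17. In 4 genes (Bdnf, Gfra2, Mdk and Ptn) all 6 injected mice lay below both controls, as did 9.66% of all tested probe sets, and in Ntrk2 all 6 lay above both, as did 10.3%. None of the 9 passed an adjusted p of 0.05 (limma with Benjamini-Hochberg adjustment over 15791 probe sets), and neither did any other probe set (0% called, with 7.07% at an unadjusted p under 0.05). At an unadjusted p under 0.05 there were 2 of the 9, both lower, where 2.98% of all probe sets were lower at that level.

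Among the ligands, Mdk had levels of 7.02 and 7.04 in acupoint mice, 7.08 and 7.09 in hip-needled mice and 6.92 and 7.13 in MPTP mice, against 7.37 and 7.37 in controls. The controls thus stood clear of all 6 injected mice, while the injected mice differed little among themselves. Averaged over the injected groups Mdk was 1.25-fold lower (log2 difference -0.33 ± 0.11, SE; adjusted p = 0.572, limma), and with 6 arrays the difference was -0.29 ± 0.06 (adjusted p = 0.0505).

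Ptn, the other member of that pair, had levels of 10.15 and 10.16 in acupoint mice, 9.77 and 10.17 in hip-needled mice and 9.79 and 10.09 in MPTP mice, against 10.31 and 10.30 in controls. Every injected mouse was again below both controls, and the lowest 2 values were those of the arrays that stood apart. The averaged difference was -0.28 ± 0.15 (SE; adjusted p = 0.737, limma) and -0.17 ± 0.06 with 6 arrays (adjusted p = 0.153).

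Bdnf had levels of 6.58 and 6.45 in acupoint mice, 6.13 and 6.61 in hip-needled mice and 5.81 and 6.58 in MPTP mice, against 6.64 and 6.84 in controls. The 4 injected mice whose arrays did not stand apart lay just under the lower control, and the 2 others lay far below. The averaged difference was -0.38 ± 0.23 (SE; adjusted p = 0.739, limma) with 8 arrays and -0.17 ± 0.09 with 6 (adjusted p = 0.283). The mean of the 2 arrays that stood apart minus that of the 6 others was -0.65, larger than either difference.

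Gdnf lay close to the limit of the filter, a mean level of 5.63, where array signals are partly background and differences come out too small. It had levels of 6.10 and 5.72 in acupoint mice, 5.35 and 5.70 in hip-needled mice and 5.84 and 5.86 in MPTP mice, against 5.84 and 6.10 in controls. The injected mice overlapped the controls, and the averaged difference of -0.21 ± 0.16 (SE; adjusted p = 0.739, limma), or -0.15 ± 0.13 with 6 arrays, was within the spread between mice.

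Among the receptors, Gfra2 had levels of 7.76 and 7.56 in acupoint mice, 8.03 and 7.98 in hip-needled mice and 7.50 and 7.96 in MPTP mice, against 8.24 and 8.19 in controls. Controls were highest, hip-needled mice came next without overlap, and acupoint and MPTP mice overlapped below. Averaged over the injected groups Gfra2 was 1.34-fold lower (-0.42 ± 0.15, SE; adjusted p = 0.637, limma), and with 6 arrays the difference was -0.35 ± 0.08 (adjusted p = 0.0644).

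Ntrk3, the TrkC receptor gene, split differently from the ligands. Its levels were 7.17 and 7.23 in acupoint mice, 7.81 and 7.40 in hip-needled mice and 7.77 and 7.16 in MPTP mice, against 7.77 and 7.72 in controls. The 2 arrays that stood apart lay within or above the control values, and the 4 other injected mice were all below them. The averaged difference was -0.33 ± 0.19 with 8 arrays (SE; adjusted p = 0.739, limma). With 6 arrays Ntrk3 fell (log2 difference -0.50 ± 0.06; adjusted p = 0.0156, limma), the only one of the 9 genes past the threshold there, where 5.41% of all probe sets passed. That call was lost with either control left out. A fit with 1 control is less precise than one without an acupoint mouse, which by itself weakens the call. Its adjusted p (limma) was 0.143 with control mouse 1 left out and 0.0953 with control mouse 2 left out, but 0.0249 with acupoint mouse 1 and 0.0202 with acupoint mouse 2 left out, a check chosen after the data were seen. With the 6 arrays 5 of the 9 genes (Ntrk3, Gfra2, Ret, Mdk and Ptn) had an unadjusted p under 0.05, as did 25.2% of all probe sets. Bdnf, Ntrk3, Gfra2, Mdk and Ptn were then lower without overlap, as were 15.6% of all probe sets, and Ntrk2 was higher without overlap, as were 17.7%.

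Ntrk2, the TrkB receptor gene, was the one gene of the 9 that was higher in every injected mouse. It had levels of 9.79 and 9.96 in acupoint mice, 9.87 and 9.86 in hip-needled mice and 9.89 and 9.77 in MPTP mice, against 9.70 and 9.64 in controls. The gap was narrow, and the averaged difference of 0.18 ± 0.11 (SE; adjusted p = 0.739, limma) was close to that with 6 arrays, 0.16 ± 0.07 (adjusted p = 0.25). Full-length and truncated receptor transcripts were not told apart.

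Ret, the signalling receptor of GDNF family ligands and a gene that dopamine neurons express, had levels of 8.27 and 8.00 in acupoint mice, 8.42 and 8.18 in hip-needled mice and 8.18 and 8.43 in MPTP mice, against 8.56 and 8.43 in controls. MPTP mouse 2 barely overlapped the lower control, and the averaged difference was -0.25 ± 0.14 with 8 arrays (SE; adjusted p = 0.739, limma) and -0.25 ± 0.10 with 6 (adjusted p = 0.185). Gfra1, its GDNF-binding partner, had levels of 9.37 and 9.56 in acupoint mice, 9.32 and 9.18 in hip-needled mice and 9.48 and 9.19 in MPTP mice, against 9.32 and 9.14 in controls. All groups but the acupoint mice overlapped the controls in Gfra1, and its averaged difference was 0.12 ± 0.13 (SE; adjusted p = 0.753, limma), or 0.05 ± 0.09 with 6 arrays.

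**Figure D2:**
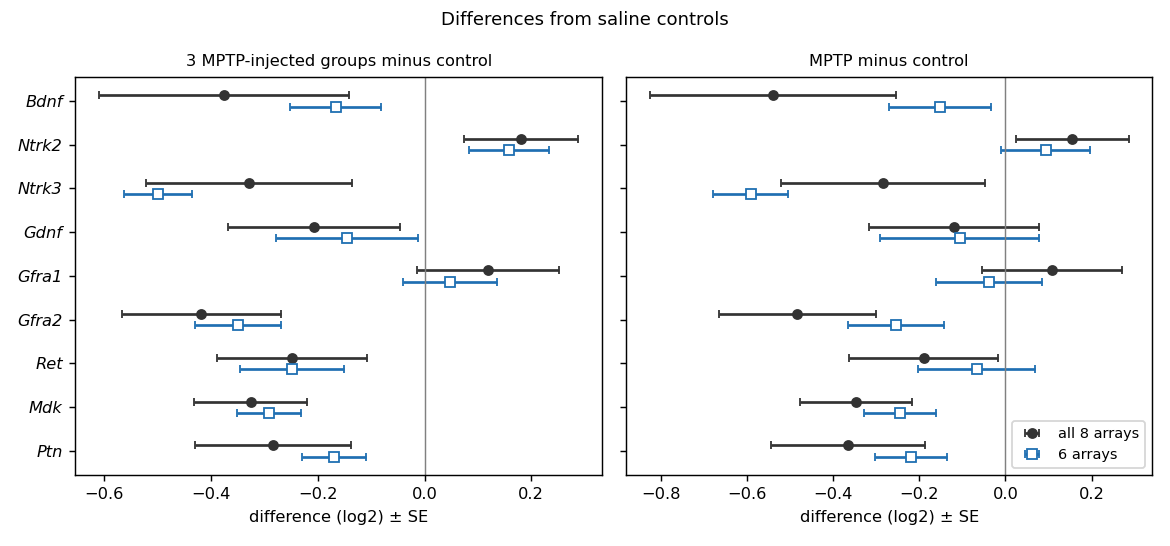
Differences in log2 level from saline controls for the 3 MPTP-injected groups together (left) and for MPTP mice alone (right), with bars of 1 SE from limma. Filled circles use all 8 arrays and open squares the 6 without MPTP mouse 1 and hip-needled mouse 1; Ntrk3 lies farther from 0 with 6 arrays in both panels, at -0.50 and -0.59, while Bdnf lies nearer to it.

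MPTP mice alone were compared with the same controls, so these values share their control arrays with those above. The 9 genes had a median difference of -0.28, against -0.02 over all tested probe sets, and -0.15 without MPTP mouse 1. Bdnf, Gfra2, Mdk and Ptn did not overlap the controls and were lower (20.4% of all probe sets), and Ntrk2 did not overlap and was higher (18.2%). None passed an adjusted p of 0.05 (limma; 0% of all probe sets passed, and 5.29% had an unadjusted p under 0.05). Mdk and Gfra2 were the 2 of the 9 under 0.05 before adjustment, where 1.96% of probe sets were lower at that level (adjusted p = 0.714 for both, limma). The differences were -0.35 ± 0.13 for Mdk, -0.48 ± 0.18 for Gfra2, -0.36 ± 0.18 for Ptn and -0.54 ± 0.29 for Bdnf (SE). With MPTP mouse 2 as the only mouse of its group they were -0.24, -0.25, -0.22 and -0.15. Ntrk3 was at -0.28 ± 0.24 with both MPTP mice and at -0.59 ± 0.09 with MPTP mouse 2 alone (SE; adjusted p = 0.0746, limma with 6 arrays, where 0.361% of all probe sets passed).

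Markers of several cell types and tissue compartments separated the same groups. The mean level of 12 thalamic projection neuron markers, all of which were measured, lay between 10.09 and 10.41 in injected mice, against 9.33 and 9.46 in controls. The mean over 11 of 12 hypothalamic markers lay between 6.00 and 7.25 in injected mice, against 7.47 and 7.49 in controls, and that over 12 of 12 dopamine neuron markers between 6.37 and 7.50, against 7.98 and 7.83. Th and Slc6a3 of this list were at 5.97 to 8.75 and 6.09 to 9.39 in injected mice. Controls were at 9.34 and 9.10 (Th) and 9.96 and 9.83 (Slc6a3). Other genes of the list overlapped. In Drd2, MPTP mouse 1 (9.41) lay above both controls (8.58 and 8.43). In Aldh1a1, hip-needled mouse 1 (11.31) lay above control mouse 2 (11.26). Meningeal fibroblast markers (9 of 9 measured) had means of 6.45 to 7.15 in injected mice, against 7.38 and 7.22 in controls, and microglial markers (7 of 8) of 7.31 to 7.51, against 7.59 and 7.57. Genes of the cytosolic ribosome (13 of 20) had means of 9.69 to 10.04 in injected mice, against 10.13 and 10.12 in controls. The means of these 5 lists, lower in all 6 injected mice, lay in the direction of Bdnf, Gfra2, Mdk and Ptn. The thalamic mean lay in that of Ntrk2. Genes lower without overlap were 7 of 9 tested for dopamine neurons, 7 of 11 for hypothalamus and 6 of 8 for meninges. They were 2 of 7 for microglia and 4 of 13 for the ribosome, against 9.66% of all tested probe sets. Rpl38 was higher on the 2 arrays that stood apart (12.10 and 12.12) than in controls (11.12 and 11.16). Astrocyte markers, 9 of 9 measured, overlapped, at 9.72 to 9.99 in injected mice, against 9.96 and 9.88 in controls. Means of oligodendrocyte, oligodendrocyte precursor, endothelial, striatal, cortical and hippocampal, habenula and choroid plexus markers overlapped the controls as well. The part of these shifts in the differences of Bdnf, Gfra2, Mdk, Ptn, Ret, Ntrk3 and Ntrk2 was not tested. In tissue of mixed cells, fewer cells of a type, less of a neighbouring tissue in the sample and less RNA per cell cannot be told apart.

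**Figure D3:**
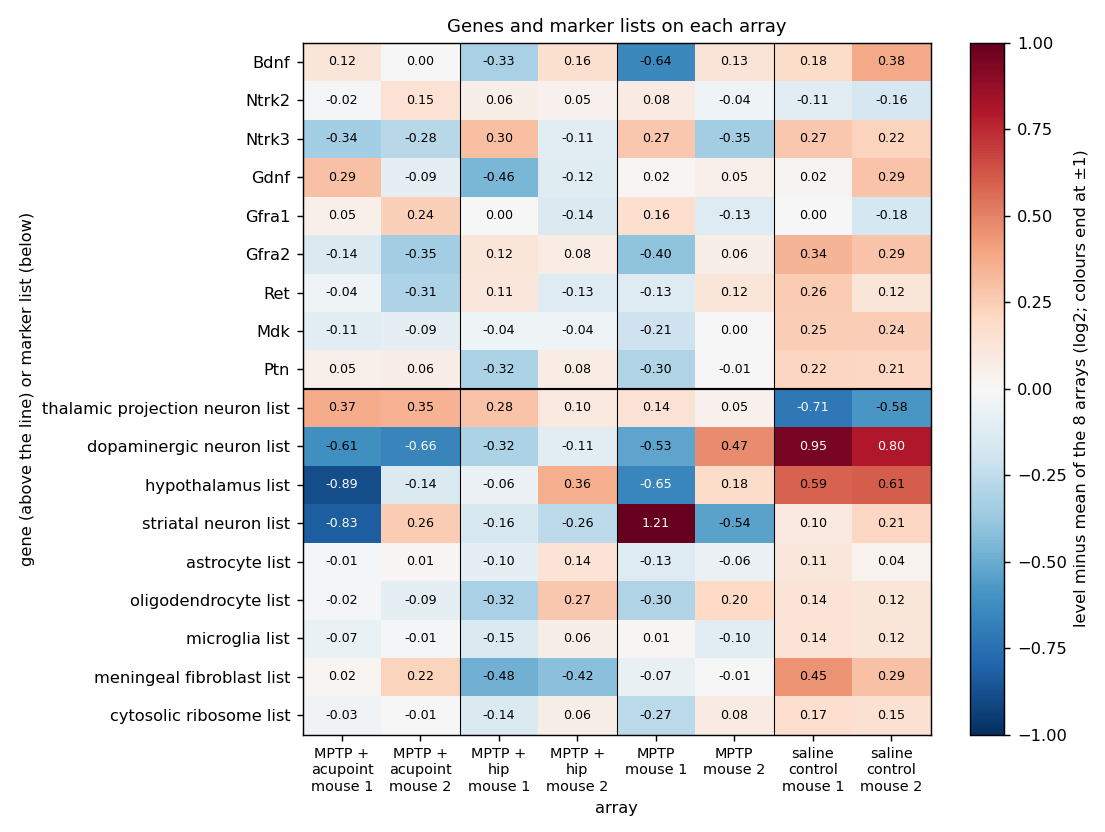
Log2 level minus the mean of the 8 arrays for the 9 genes (above the line) and for the mean of 9 marker lists (below it), by array, with acupoint, hip-needled, MPTP and control mice from left to right. The controls are the only arrays that are high in Mdk, Gfra2 and Ptn together and low in the thalamic projection neuron list.

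The second question was whether needling at GB34 and LR3 changed these genes in mice given MPTP. No gene of the 9 was past the threshold in acupoint against MPTP mice, and the smallest adjusted p was 0.889 (limma). In this comparison 0% of all probe sets passed and 1.37% had an unadjusted p under 0.05, which none of the 9 had. Of the 9 genes 6 were higher and 3 lower, with a median difference of 0.05 against 0.01 over all probe sets. Ptn was the one gene in which the groups did not overlap (10.15 and 10.16 in acupoint mice, against 9.79 and 10.09 in MPTP mice; 14.5% of all probe sets were higher without overlap). Its difference was 0.21 ± 0.18 (SE), and it was 0.07 ± 0.08 against MPTP mouse 2 alone. Bdnf stood at 0.32 ± 0.29 with all arrays and at -0.07 ± 0.12 with 6, in the other direction. Ntrk3 turned likewise, at -0.27 ± 0.24 and 0.04 ± 0.09. Gfra2 stood at -0.07 ± 0.18 and, against MPTP mouse 2 alone, at -0.30 ± 0.11, with an adjusted p of 0.299 (limma with 6 arrays). Against that mouse Gfra1 was at 0.27 ± 0.12 and Ret at -0.30 ± 0.14. Dopamine neuron markers, among which Ret is not listed, had means of 6.41 and 6.37 in acupoint mice, against 6.50 and 7.50 in MPTP mice. Thalamic projection neuron markers had means of 10.41 and 10.39, against 10.18 and 10.09. The part of these lists in the values of Ret and the other genes was not tested.

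Hip needling was set against MPTP alone in the same way and shares the MPTP arrays with the comparison above. Gdnf was lower without overlap (5.35 and 5.70 in hip-needled mice, against 5.84 and 5.86 in MPTP mice; 6.74% of all probe sets were lower in this way), with a difference of -0.32 ± 0.20 (SE). With hip-needled mouse 2 and MPTP mouse 2 alone it was -0.17 ± 0.21. Gfra2 was higher without overlap (8.03 and 7.98, against 7.50 and 7.96; 5.67% of probe sets), with a difference of 0.27 ± 0.18, and this was 0.02 ± 0.13 with 6 arrays. None of the 9 passed an adjusted p of 0.05 (limma, adjusted p of 1.00 throughout), where 0.0443% of all probe sets did, and 1.56% had an unadjusted p under 0.05. The other 7 genes differed by -0.09 to 0.17, and in all of them the groups overlapped. With 6 arrays these 7 ran from -0.25 ± 0.16 in Ret to 0.24 ± 0.10 in Ntrk3. Choroid plexus markers separated these groups far more widely than any of the 9 genes. The mean of 11 of 13 such markers was 5.55 and 5.63 in hip-needled mice, against 8.57 and 8.61 in MPTP mice, and it was 8.05 and 8.62 in acupoint mice and 6.73 and 6.81 in controls. Its part in the values of Gdnf and Gfra2 was not tested.

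Acupoint and hip-needled mice were then compared directly, since both had been needled and injected. Gdnf (log2 difference 0.39 ± 0.20, SE) and Gfra1 (0.22 ± 0.16) were higher in acupoint mice without overlap, as were 13.8% of all probe sets. Ntrk3 (-0.41 ± 0.24), Gfra2 (-0.34 ± 0.18) and Mdk (-0.06 ± 0.13) were lower without overlap, as were 18% of probe sets. Ret overlapped between the groups, with a difference (-0.17 ± 0.17) no larger than its SE. None of these passed an adjusted p of 0.05 (limma, adjusted p from 0.893 to 0.98 over the 9 genes; 0% of all probe sets passed and 1.89% had an unadjusted p under 0.05). With 6 arrays the differences were 0.22 ± 0.18 for Gdnf, 0.29 ± 0.12 for Gfra1, -0.20 ± 0.09 for Ntrk3, -0.32 ± 0.11 for Gfra2 (adjusted p = 0.492, limma), -0.06 ± 0.08 for Mdk and -0.05 ± 0.14 for Ret. Several marker lists also separated these groups. Habenula markers (8 of 8 measured) had means of 6.97 and 7.48 in acupoint mice, against 6.24 and 6.11 in hip-needled mice, and meningeal fibroblast markers of 6.94 and 7.15, against 6.45 and 6.51. The choroid plexus means given above were likewise higher in both acupoint mice, while hypothalamic markers had means of 6.00 and 6.74 in acupoint mice, against 6.83 and 7.25 in hip-needled mice. Dopamine neuron markers had means of 6.41 and 6.37 in acupoint mice, against 6.71 and 6.92 in hip-needled mice. Thalamic projection neuron markers had means of 10.41 and 10.39, against 10.32 and 10.14. The part of these lists in the values of Gdnf, Gfra1, Ntrk3, Gfra2 and Mdk was not tested.

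**Figure D4:**
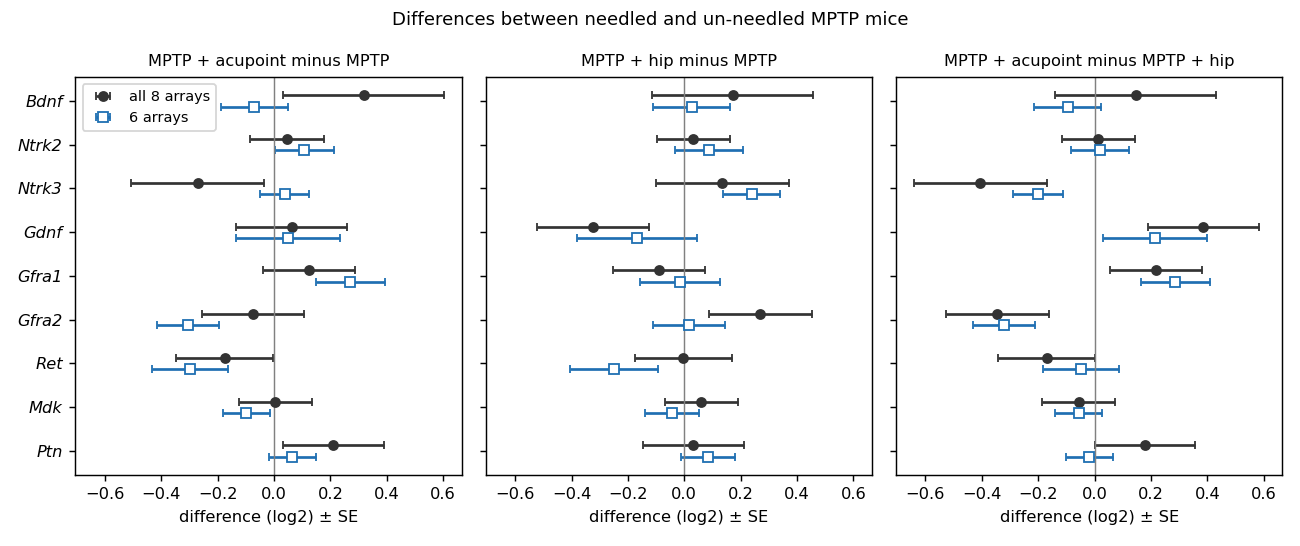
Differences in log2 level among the 3 MPTP-injected groups for the 9 genes, with bars of 1 SE from limma; the panels show acupoint minus MPTP, hip-needled minus MPTP and acupoint minus hip-needled mice. Filled circles use all 8 arrays and open squares the 6 without MPTP mouse 1 and hip-needled mouse 1; in the first panel Bdnf and Ntrk3 lie on opposite sides of 0 in the 2 sets of arrays.

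From highest to lowest, group means over all 8 arrays ran control, acupoint, hip-needled and MPTP in Bdnf and Ptn, and in both only acupoint mice and controls were neighbours without overlap. They ran control, hip-needled, MPTP and acupoint in Gfra2 and Ntrk3, and in Ntrk3 no neighbours were free of overlap. Mdk ran control, hip-needled, acupoint and MPTP, Ret control, MPTP, hip-needled and acupoint, and Gdnf control, acupoint, MPTP and hip-needled. Control mice had the highest mean in these 7 genes and the lowest in the other 2, Ntrk2 and Gfra1. In Gfra1 and Ret all neighbouring groups overlapped, in Gdnf MPTP and hip-needled mice did not, and in Ntrk2 MPTP and control mice did not. In Gfra2 the first 3 groups of that order were free of overlap, and so were the first 3 in Mdk. Without MPTP mouse 1 and hip-needled mouse 1 the order of the means turned in 5 of the 9 genes. Bdnf then ran control, hip-needled, MPTP and acupoint, and Ptn control, hip-needled, acupoint and MPTP. Ntrk3 also ran control, hip-needled, acupoint and MPTP, Mdk ran control, MPTP, hip-needled and acupoint, and in Gfra1 the order was acupoint, control, MPTP and hip-needled.

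The genes also differed in how they followed the 2 arrays that stood apart. In Bdnf and Ptn, 83.0% and 86.1% of the variation over the 8 arrays lay between these 2 arrays and the other 6, and these were the 2 genes in which both arrays were below all others. In Ret the share was 0.0441%, in Gfra2 9.7% and in Gfra1 11.3%. Bdnf and Ptn correlated at r = 0.917 over the 8 arrays and 0.657 over the 6. Ntrk3 and Ptn correlated at -0.27 over the 8 and 0.969 over the 6, and Gfra2 and Mdk at 0.878 and 0.884. Ntrk2 ran against Mdk (r = -0.841 over 8 arrays, -0.823 over 6) and against Ret (-0.803 and -0.907). The arrays fall into the 2 sets named above and share group and normalization, so these values describe them and carry no test.

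Among 13523 other genes, those closest to each of the 9 were named by the highest r over the 8 arrays. Ptn was closest to AI597479 (r = 0.995 over 8 arrays, 0.986 over 6) and Tcf3 (0.991 and 0.962), and Mdk to Mboat7 (0.991 and 0.988) and Cd200 (0.982 and 0.975). Bdnf was closest to Mvb12a (0.991, and 0.917 over 6 arrays) and Taf1c (0.99 and 0.92), and Gfra2 to Tmtc4 (0.984 and 0.982) and Limk1 (0.981 and 0.982). Ntrk3 was closest to Ptpro (0.981 and 0.976) and Caly (0.975 and 0.979), and Ntrk2 to Alg6 (0.977 and 0.977) and Gys1 (0.976 and 0.983). The closest to Ret were Tbc1d10c (0.976 and 0.984) and Kcns3 (0.966 and 0.967), to Gdnf Klf10 (0.961 and 0.931) and Tex46 (0.927 and 0.99), and to Gfra1 Lrrc55 (0.946 and 0.936) and Cfap43 (0.945 and 0.932). With so few arrays and so many genes, high values of r are common.

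Other genes of the same pathways gave no call either: over 6 further lists, no tested gene passed an adjusted p of 0.05 in any of the 5 comparisons (limma). The list genes named here and below were picked for a small p and lack of overlap, so these values are no separate evidence. Averaged over the injected groups against controls, other neurotrophin and GDNF family genes had a median of -0.09 (6 of 10 lower), with Sorcs2, a receptor for proneurotrophins, at 0.28 ± 0.10 and Nrtn, the gene of neurturin, at -0.43 ± 0.18 (SE). With 6 arrays these were 0.26 and -0.29. At an unadjusted p under 0.05 there was 1 gene of the 10, Sorcs2, against 7.07% of all probe sets. Genes for receptors of midkine and pleiotrophin had a median of 0.05 (5 of 9 higher). Ptprz1, the receptor-type phosphatase that binds both ligands, was at 0.28 ± 0.11, with levels of 9.69 and 9.74 in acupoint mice, 9.65 and 9.58 in hip-needled mice and 9.80 and 9.57 in MPTP mice, against 9.44 and 9.34 in controls. Its levels lay above the controls without overlap, as did those of 10.3% of all probe sets, and with 6 arrays the difference was 0.23. Ltk, a receptor kinase related to Alk and not an established receptor of either ligand, lay on the other side at -0.55 ± 0.21, or -0.40 with 6 arrays.

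Among genes that act downstream of active Trk and Ret, Shc3, a neuronal adaptor that binds phosphorylated receptors, had the largest difference of the 20 tested. It had levels of 10.76 and 10.71 in acupoint mice, 11.18 and 10.38 in hip-needled mice and 11.01 and 10.39 in MPTP mice, against 9.74 and 9.73 in controls. All injected mice were above both controls, as they were in 10.3% of all probe sets. The averaged difference of Shc3 was 1.01 ± 0.25 (SE, adjusted p = 0.39, limma), or 0.77 with 6 arrays. The list as a whole did not move with it: its median was 0.06 with 8 arrays and -0.05 with 6. Genes raised by neuronal activity had a median of 0.05 over 13 genes in injected mice against controls. Against MPTP mice it was 0.02 in acupoint and 0.17 in hip-needled mice. With 6 arrays these medians were 0.29 and 0.27 over the same 13 genes. There MPTP mouse 2 was the only MPTP mouse, and it had the lowest list mean of all 8 arrays (7.16). The list mean was 7.43 in MPTP mouse 1, 7.26 and 7.42 in acupoint mice and 7.33 and 7.44 in hip-needled mice. With 8 arrays, 7 of the 13 genes were higher and 6 lower in acupoint than in MPTP mice, and 9 and 4 in hip-needled mice. Of these, Dusp1, the gene of a phosphatase that switches off MAP kinases, had levels of 8.91 and 9.28 in acupoint mice and 9.14 and 9.31 in hip-needled mice, against 8.62 and 8.64 in MPTP mice. Both needled groups lay above the MPTP mice without overlap, by 0.47 ± 0.16 in acupoint mice (adjusted p = 0.889, limma) and by 0.59 ± 0.16 in hip-needled mice (adjusted p = 1.00), 2 comparisons that share the MPTP arrays. Of all probe sets, 14.5% and 5.67% were higher without overlap in these comparisons. Dusp6, a related phosphatase, was at 0.35 ± 0.14 in acupoint mice and 0.30 ± 0.14 in hip-needled mice. With 6 arrays Dusp1 was at 0.45 in acupoint mice and 0.67 in hip-needled mice, and Dusp6 at 0.44 and 0.48.

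Of genes for cleavage and release of the ligands, 5 of 8 were lower (median -0.20, and -0.07 with 6 arrays). Cadps2, a vesicle protein that promotes the release of BDNF in mice, had levels of 7.11 and 7.45 in acupoint mice, 6.72 and 7.04 in hip-needled mice and 6.75 and 6.83 in MPTP mice, against 7.64 and 7.38 in controls. It was lower in MPTP mice than in controls (-0.72 ± 0.19, SE; adjusted p = 0.703, limma; unadjusted p = 0.00776) and higher in acupoint than in MPTP mice (0.49 ± 0.19; adjusted p = 0.889), in both without overlap. With 6 arrays these differences were -0.68 and 0.45. Of all probe sets, 20.4% were lower without overlap in the first comparison and 14.5% higher in the second. Scg2, a granin of dense-core vesicles, was at -0.36 ± 0.12 in injected mice against controls, or -0.29 with 6 arrays. Unlike Cadps2, Scg2 was lower in acupoint than in MPTP mice, at -0.27 ± 0.15, or -0.39 with 6 arrays. The groups did not overlap, and 12.5% of all probe sets were lower in this way. Of the 8 genes 2 were higher and 6 lower in that comparison, with a median of -0.09, or 0.04 with 6 arrays. Furin, a protease that cleaves proneurotrophins, was at 0.41 ± 0.17 in MPTP mice against controls, or 0.30 with 6 arrays. Of other trophic receptors, the IGF-1 receptor gene Igf1r had the smallest p in injected mice against controls (0.55 ± 0.15, adjusted p = 0.474, limma), in a list of 17 tested genes with a median of 0.10, or -0.019 with 6 arrays. Its levels were 8.74 and 8.80 in acupoint mice, 8.70 and 8.44 in hip-needled mice and 8.74 and 8.33 in MPTP mice. Controls were at 8.18 and 7.97, below all of these, as in 10.3% of all probe sets. With 6 arrays the difference of Igf1r was 0.44.

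**Figure D5:**
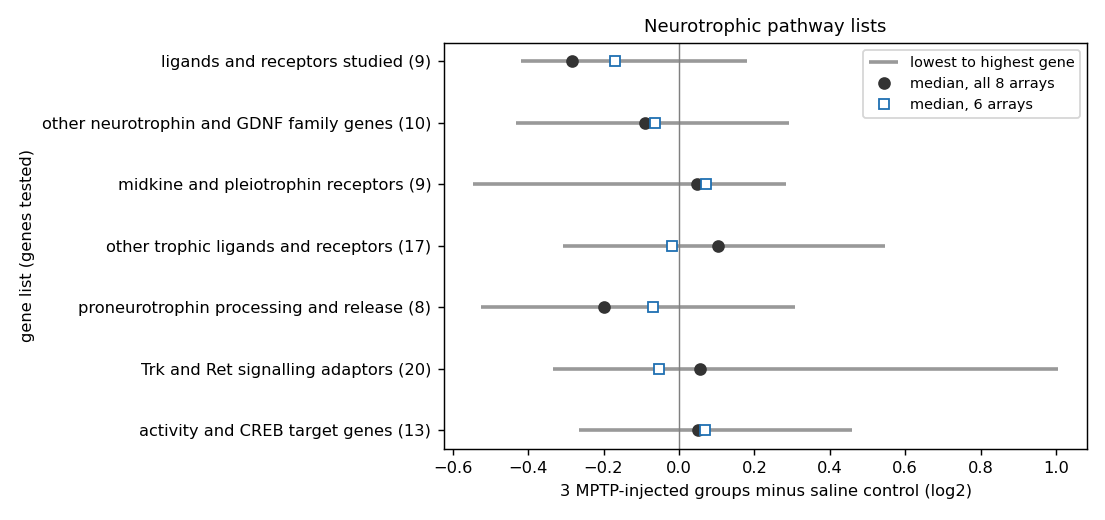
Log2 difference of the 3 MPTP-injected groups from saline controls for the 9 genes described here and for 6 further lists of the pathway, with the number of genes tested in brackets. Circles and squares are medians with 8 and with 6 arrays, and grey lines run from the lowest to the highest gene of a list with 8 arrays. The median of the 9 genes is the farthest from 0 in both. The genes and lists were chosen with earlier results of these data known, so this ranking is no test.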

How the data were processed

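Thalamic RNA of 8 mice was hybridised to 1 array each (300 ng of total RNA, per the labels' protocols). Expression Console (Affymetrix) with RMA is named in the submitters' processing notes, so the values the authors deposited are log2 levels per probe set, corrected for background and normalized between arrays. Tool versions were not given in the sources used here. Genes were named through the platform annotation. Of 35557 probe sets, those without a symbol (12147) and those with a mean at or below the 40th percentile of all were left out, which left 15791 to test. No detection calls were available to set a level against background.

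R 4.3.3 and limma 3.58.1 fitted group means over 8 arrays (4 residual and 2.53 prior degrees of freedom), with two-sided p-values adjusted by Benjamini-Hochberg over all tested probe sets. With 6 arrays there were 2 residual degrees of freedom. Permuting 2 against 2 arrays exactly gives no two-sided p below 0.333, so it was left out. The procedure was run on simulated data with planted changes larger than the differences of the 9 genes and with no arrays standing apart. That run does not show how well changes as small as these would be found. All 10 genes were to be named, and so were the 2 genes of highest r with each of the 9. List genes were eligible if past the threshold, or if among the 2 of smallest p in their list and without overlap in a comparison. Lack of overlap was thus a condition for naming them. Not all eligible list genes are named above: Ngfr, Sorcs1, Ncam1, Gab2 and Fos, for example, were left out. The genes and lists were chosen with earlier results of these data known. Alternatives were quantile normalization, no brightness filter or one at the 60th percentile, an intensity trend, array weights, fits of 2 groups alone, a block for mouse number, the 6 arrays, and each mouse left out. Promoter windows are from RefSeq (GRCm38.p6).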

Additional observations from a re-analysis of the deposited data

How the results depend on the processing

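Of the 9 genes' differences in 5 comparisons, 665 of 701 values under the alternatives kept their direction and their side of an adjusted p of 0.05, 35 turned round and 1 value, that of Ntrk3 in injected mice against controls with 6 arrays, passed (-0.50). With 6 arrays Gfra1 turned to -0.038 in MPTP against control, Bdnf to -0.069, Ntrk3 to 0.038 and Mdk to -0.099 in acupoint against MPTP, Mdk to -0.042 in hip-needled against MPTP, and Bdnf to -0.096 and Ptn to -0.019 in acupoint against hip-needled mice; there, quantile normalization turned Ntrk2 to -0.020. The cause was not tested. Many of the 701 values could not turn round. The brightness filters, intensity trend, array weights, block and fits of 2 groups left the differences unchanged and could move only their p. Dropping a mouse from outside a comparison did not move its difference either. The 35 that turned came from quantile normalization (1 of 45), the 6 arrays (7 of 45) and single mice left out (up to 8 of 45). The count of 665 therefore overstates how stable the directions were. Leaving out 1 mouse at a time gave, in MPTP against control, -0.25 to 0.012 for Gdnf, -0.038 to 0.25 for Gfra1 and -0.59 to 0.025 for Ntrk3. In acupoint against MPTP it gave -0.069 to 0.71 for Bdnf, -0.58 to 0.038 for Ntrk3, -0.099 to 0.11 for Mdk, -0.037 to 0.13 for Ntrk2, -0.020 to 0.27 for Gfra1, -0.30 to 0.16 for Gfra2 and -0.13 to 0.25 for Gdnf. In hip-needled against MPTP it gave -0.22 to 0.56 for Bdnf, -0.24 to 0.055 for Gfra1, -0.043 to 0.16 for Mdk, -0.17 to 0.23 for Ptn, -0.030 to 0.094 for Ntrk2, -0.17 to 0.44 for Ntrk3 and -0.13 to 0.12 for Ret. In acupoint against hip-needled mice it gave -0.069 to 0.096 for Ntrk2, -0.096 to 0.39 for Bdnf and -0.019 to 0.38 for Ptn. The median of the 9 genes was then -0.31 to -0.15 in MPTP against control, -0.043 to 0.12 in hip-needled against MPTP, -0.049 to 0.082 in acupoint against hip-needled and -0.30 to -0.23 in injected mice against controls. With 6 arrays it was -0.15 in the first, -0.049 in the third and -0.17 in the last of these, and with the stricter filter, which left 7 of the 9 genes, -0.056 in the third.

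Over all probe sets, the number past an adjusted p of 0.05 with 6 arrays was 57 in MPTP against control, 3 in acupoint against MPTP, 23 in hip-needled against MPTP, 21 in acupoint against hip-needled and 855 in injected mice against controls, where it was 0, 0, 7, 0 and 0 with 8. Array weights gave 230 in the last comparison, 2 in acupoint against hip-needled and 0 in hip-needled against MPTP, which was also 0 with only the groups compared. Without the filter there were 2 in acupoint against hip-needled and 1 in injected mice against controls, and with the trend 2 in acupoint against hip-needled. Leaving out 1 mouse gave 0 to 5 in hip-needled against MPTP, 0 to 1 in acupoint against hip-needled and 0 to 9 in injected mice against controls. The difference of mouse 1 and mouse 2 correlated between hip-needled and MPTP mice at 0.822, where mouse 1 of both groups is the array that stood apart, and at -0.282 to 0.190 in the 5 other pairs of groups. The labels tie no mouse of one group to one of another, so the numbers were not used as pairs. With the mouse number as a block, hip-needled against MPTP had 5 probe sets past the threshold, the other comparisons 0, and no call among the 9 genes changed. No gene of the 9 had a second probe set, so that alternative was not run. Gdnf lies near the brightness limit, where differences come out too small.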
